A study of Rattus norvegicus with 192 samples.

Results

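Tmem252 encodes a small transmembrane protein whose function is poorly known. It was measured in 6 tissues of male Sprague-Dawley rats after phosphine (PH3). This gas is used against pests in stored grain, and it inhibits the terminal complex of the mitochondrial respiratory chain. The gene was taken as the probe sets annotated to Tmem252 and to no other gene, which gave 1 probe set among the 31042 tested and 1 gene of 13438 named. PH3 rats breathed 660 ppm in a whole-body chamber for 25 min (16500 ppm×min), and Air rats spent the same 25 min at 0 ppm; their age is not given in the labels. Kidney, lung, heart, blood, brain stem and olfactory bulb were taken 1, 3, 6 or 24 h later from rats killed under ketamine and xylazine, 192 arrays in all. Each exposure, time and tissue had 4 rats, except 5 for Air olfactory bulb at 1 h and 3 for Air blood at 24 h.

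Tmem252 was chosen by its PH3 minus Air differences, that of brain stem at 1 h among them, and the rule that defines it uses its Air level, its PH3 minus Air differences in every tissue and time and its agreement across tissues of a rat. Those values are therefore given as a description, with their spread between rats and with no test. Differences are log2 values, each given ± its SE from limma, where the 8 groups of a tissue share 1 estimate of spread. Tests are given for other genes, and for how Tmem252 varied with them between rats of one group, which the difference between group means does not hold. The agreement across tissues was read from that same variation between rats, so these tests are not wholly free of the rule.

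As background, the stress of a toxic exposure makes the adrenal cortex release glucocorticoids (corticosterone in the rat). The hormone enters cells, binds the glucocorticoid receptor and switches target genes on or off within an hour or so. Fkbp5, a chaperone partner of the receptor that dampens it, Sgk1, a kinase of ion transport, Per1, a clock gene, Tsc22d3, an anti-inflammatory leucine zipper protein, and Pdk4, which holds back glucose oxidation, are widely used markers of that response. They were set beside Tmem252.

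The deposited values are log2 intensities, and all 97 control probe sets were left out of the tests. No array resembled another tissue best, and marker genes bore out the labels: 5 of 5 measured heart muscle markers, 4 of 5 kidney markers, 5 of 6 lung epithelium markers, 6 of 6 red cell markers, 4 of 4 olfactory bulb markers and 4 of 4 oligodendrocyte markers were highest in heart, kidney, lung, blood, olfactory bulb and brain stem. Of 7 neuron markers, 6 were highest in brain stem or olfactory bulb. There were 9 arrays that stood apart from their tissue, none of them at 1 h. The kidney PH3 array labelled Rat363 at 3 h, the only array with that number, matched the other tissues of Rat368 best (r = 0.856 over 200 probe sets). The heart arrays of PH3 Rat368 and Air Rat370 at 3 h also matched another number better than their own, Rat363 (r = 0.68, against 0.602) and Rat400 (r = 0.217, against 0.0709). So did the blood arrays of PH3 Rat325 and PH3 Rat341 at 24 h, with Rat522 (r = 0.196, against 0.137) and Rat325 (r = 0.17, against 0.107). RNA quality was read as the 3′ index, the mean 3′ minus 5′ difference of the Gapdh and beta-actin control probe sets, which rises as RNA breaks down. It was high in 3 heart arrays that matter below: 0.868 in PH3 Rat357 at 1 h, 0.923 in PH3 Rat368 at 3 h and 0.842 in Air Rat370 at 3 h, against 0.201 to 0.421 in the other arrays of those groups. The blood array of PH3 Rat381 at 6 h (1.02) and the heart array of PH3 Rat341 at 24 h (0.747) also had a high index. That heart had the highest Tmem252 of its group, 7.36.

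The promoter of Tmem252 is shown because the gene was set beside hormone targets, and it is the stretch in which a hormone response element could be looked for. It covers 250 bases before and 50 bases after the annotated start, on the plus strand at chr1:231743146-231743445 of build GRCr8 (RefSeq), and capitals mark the only match found.
Tmem252 promoter: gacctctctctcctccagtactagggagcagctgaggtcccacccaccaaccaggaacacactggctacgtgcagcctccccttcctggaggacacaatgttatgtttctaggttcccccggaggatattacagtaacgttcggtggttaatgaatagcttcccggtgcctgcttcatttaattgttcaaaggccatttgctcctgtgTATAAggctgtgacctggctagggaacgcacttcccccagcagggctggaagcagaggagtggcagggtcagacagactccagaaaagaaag
Both strands were searched. The letters TATAA of a TATA box begin at position -42 from the start, and 26.2% of 33469 rat promoters of this length hold them. The full glucocorticoid response element, searched as GNACA, any 3 bases and TGTNC, was not in this window (0.439% of promoters hold it). Nor was the shorter AGAACA (20.7%), which can overlap an end of it. The cyclic AMP response element TGACGTCA (1.83%) and the TGACG inside it (21.2%) were not there either. A match is no proof of a site, and its absence says nothing about elements farther away.

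In rats that breathed air, Tmem252 was highest in kidney and lung, intermediate in heart and lowest in blood, brain stem and olfactory bulb. The Air log2 level over all 4 times averaged 9.41 ± 0.257 in kidney (SD, n = 16), 8.63 ± 0.539 in lung (n = 16) and 7.27 ± 0.377 in heart (n = 16). It averaged 4.43 ± 0.510 in blood (n = 15), 4.38 ± 0.549 in brain stem (n = 16) and 4.11 ± 0.411 in olfactory bulb (n = 17). The ranges of neighbours overlapped, from 8.88 to 9.83 in kidney, 7.66 to 9.49 in lung and 6.89 to 8.36 in heart, and blood, brain stem and olfactory bulb could not be put in order within their spread. Only between heart and the lower 3 tissues was there a gap, since the highest of those, in blood, was 5.61. The sources do not say whether tissues were normalized jointly, so an order across tissues carries that doubt. The table holds no detection call, so whether the levels near 4 lie above background is not known, and differences that involve them may be compressed.

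In brain stem at 1 h, Tmem252 was 7.32, 6.33, 5.34 and 6.57 in PH3 Rat343, Rat350, Rat351 and Rat357, against 4.70, 3.60, 4.06 and 3.72 in Air Rat345, Rat352, Rat353 and Rat354. Every PH3 rat lay above every Air rat, and Rat351 was the lowest of the exposed. The means were 6.39 ± 0.817 in PH3 and 4.02 ± 0.494 in Air (SD, n = 4 each), a difference of 2.37 ± 0.342, or 5.17-fold. This difference was among those that chose the gene. In the same contrast, limma called 0.19% of all probe sets higher at an adjusted p under 0.05. The 3′ index was 0.530 ± 0.130 in PH3 and 0.438 ± 0.0489 in Air, and with the index as a covariate the difference was 2.31 ± 0.361.

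Limma called 0 of 11 endothelial, 0 of 7 choroid plexus, 0 of 7 meningeal and pericyte and 0 of 6 red cell markers in brain stem at 1 h (3, 1, 0 and 0 at an unadjusted p under 0.05). Of all probe sets 0.19% were called higher and 0.116% lower there, so lists this short would mostly hold no call. Endothelial markers, 11 genes of vessel lining, had a mean level of 6.71 to 6.82 in PH3 and 6.85 to 7.14 in Air, so they were lower in PH3 with no overlap, and 1 of 11 effects was positive. Their part in the Tmem252 difference was not tested. Choroid plexus markers (7 genes) ranged from 4.87 to 6.82 in PH3 and 3.90 to 7.55 in Air, meningeal and pericyte markers (7 genes) from 5.76 to 6.19 in PH3 and 5.94 to 6.37 in Air, and red cell markers (6 genes) from 4.05 to 4.41 in PH3 and 3.70 to 4.80 in Air. At 24 h, when Tmem252 was lower in PH3, endothelial markers were higher, at 6.84 to 7.27 in PH3 and 6.61 to 6.81 in Air. In a bulk sample, fewer cells of a type and less RNA per cell cannot be told apart.

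Lung, heart and kidney came from the same 8 rats and were also higher in PH3 at 1 h, with no overlap between the groups in any of them. In lung, Tmem252 was 10.92, 10.17, 9.06 and 10.40 in PH3 Rat343, Rat350, Rat351 and Rat357, against 8.77, 8.08, 8.31 and 8.01 in Air Rat345, Rat352, Rat353 and Rat354, a difference of 1.84 ± 0.298 (3.59-fold). In heart, it was 9.34, 8.28, 7.80 and 9.60 in the same PH3 rats, against 7.12, 7.05, 7.01 and 7.37 in the Air rats, a difference of 1.62 ± 0.323 (3.06-fold). The lowest PH3 heart, again Rat351, still lay above the highest Air heart. The highest, Rat357, was the array with the high 3′ index, and the difference was 1.33 without it and 1.36 ± 0.227 with the index as a covariate. Endothelial markers were 8.65 to 9.53 in PH3 hearts and 8.64 to 8.84 in Air hearts, with 7 of 11 effects positive, and their part in the heart difference was not tested. In lung their mean level was 10.16 to 10.31 in PH3 and 10.11 to 10.32 in Air, with 4 of 11 effects positive, and limma called Cldn5, a tight junction protein, higher (0.63 ± 0.0862, adjusted p = 3.1e-05) and Kdr, a VEGF receptor, lower (-0.49 ± 0.107, adjusted p = 0.00529). In kidney, Tmem252 was 11.29, 10.98, 9.48 and 10.82 in those PH3 rats, against 8.88, 9.43, 9.10 and 9.40 in the Air rats, a difference of 1.44 ± 0.243 (2.72-fold). Here Rat351 lay only just above the Air rats. Over all probe sets limma called 2.35% higher in lung, 0.454% in heart and 1.51% in kidney at this time.

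Limma called 0 of 6 red cell markers in lung, 0 in heart and 2 in kidney at 1 h (2, 1 and 2 at an unadjusted p under 0.05). Their mean level was 5.59 to 6.00 in PH3 lungs and 4.85 to 5.65 in Air lungs, 5.73 to 6.35 in PH3 hearts and 5.09 to 6.18 in Air hearts, and 4.87 to 5.26 in PH3 kidneys and 4.47 to 4.85 in Air kidneys. The groups overlapped in lung and heart and not in kidney, and all 6 effects were positive in each organ. Slc4a1, a member of the list, was at 8.46 in PH3 kidneys and 8.44 in Air kidneys, above its 7.01 in PH3 hearts and 6.55 in PH3 lungs. The kidney mean may therefore not reflect red cells alone. Alas2 and Ahsp, which serve haem and haemoglobin assembly, were the markers called in kidney (effects 1.38 and 0.82, limma adjusted p = 0.0295 and 0.0374). Their part in the Tmem252 differences was not tested. Tmem252 itself was low in blood at that time, 4.01 to 5.10 in PH3 and 4.31 to 5.61 in Air.

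The olfactory bulb, taken largely from other rats, had a smaller difference and the blood none of that size. Tmem252 was 5.70, 5.20, 3.81 and 4.64 in PH3 olfactory bulbs at 1 h (Rat482, Rat483, Rat506 and Rat508), against 4.91, 3.87, 4.05, 3.69 and 4.32 in Air. The groups overlapped, with 2 PH3 rats above every Air rat and Rat506 among the lowest, and the difference was 0.67 ± 0.320. It was 0.385 without Rat482 and 1.01 without Rat506. At 3 h the PH3 olfactory bulbs had 3.89, 4.35, 5.31 and 5.14 and the Air ones 4.14, 3.98, 3.98 and 3.67, a difference of 0.73 ± 0.338, with 3 of 4 PH3 rats above all Air rats. In blood at 1 h it was 5.10, 4.47, 4.47 and 4.01 in PH3, against 4.67, 4.45, 4.31 and 5.61 in Air, a difference of -0.25 ± 0.355 that turned to 0.037 without Air Rat354. The blood differences were -0.06, 0.28 and -0.00 at 3, 6 and 24 h, each within its SE of 0.355, 0.355 and 0.383.

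**Figure D1:**
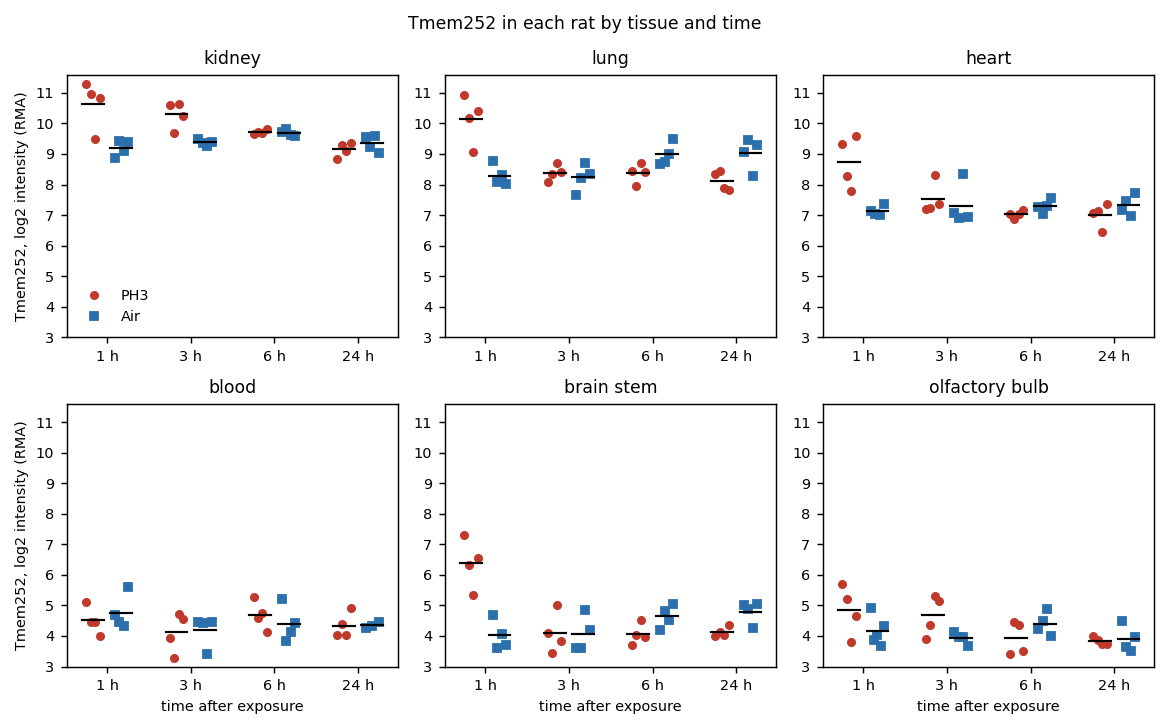
Tmem252 log2 intensity of every rat (points) with the group mean (black line), in 6 tissues and at 4 times after exposure, PH3 in red circles left of Air in blue squares. At 1 h the PH3 points of kidney, lung, heart and brain stem lie above all Air points of that tissue, and at 3 h this holds for kidney alone.

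By 3 h only the kidney still had PH3 values above every Air value. They were 10.59, 9.69, 10.64 and 10.26 in PH3 kidneys (Rat359, Rat361, Rat363 and Rat399), against 9.50, 9.37, 9.25 and 9.40 in Air kidneys (Rat355, Rat365, Rat400 and Rat490), a difference of 0.92 ± 0.243. Limma called 0.261% of all probe sets higher there. In lung, heart and brain stem the groups overlapped, and the difference was smaller than its SE, at 0.16 ± 0.298 in lung, 0.22 ± 0.323 in heart and 0.03 ± 0.342 in brain stem. Single rats moved these 3 in both directions. Lung was -0.03 without Air Rat355, but 0.26 without PH3 Rat359 and 0.31 without Air Rat370. Heart was -0.04 without PH3 Rat368, but 0.33 without PH3 Rat359 and 0.57 without Air Rat370, and Rat368 and Rat370 are the 2 hearts of that time with the high 3′ index. Brain stem was -0.12, -0.13 or -0.28 without Air Rat355, Air Rat365 or PH3 Rat368, but 0.25 without PH3 Rat359 and 0.29 without Air Rat370. In lung at 3 h the 3′ index also differed, 0.178 ± 0.0651 in PH3 and 0.445 ± 0.0776 in Air, and with the index as a covariate the lung difference was 0.23 ± 0.417.

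From 6 h the difference was below 0 in brain stem, heart, lung and olfactory bulb. At 6 h Tmem252 was 3.71, 4.03, 4.51 and 3.97 in PH3 brain stems, against 4.18, 4.83, 4.51 and 5.06 in Air, a difference of -0.59 ± 0.342. At 24 h it was 4.01, 4.12, 4.02 and 4.35 in PH3, against 5.004, 4.87, 4.25 and 5.04 in Air, a difference of -0.66 ± 0.342. At both times every PH3 brain stem lay below the Air mean, while the ranges still met. At 24 h they met only through Air Rat340 (4.25) and PH3 Rat341 (4.35), and both of these brain stem arrays stood apart from their tissue. In lung the 6 h values were 8.45, 7.96, 8.72 and 8.42 in PH3 and 8.69, 8.75, 9.01 and 9.49 in Air (-0.60 ± 0.298), and the 24 h values 8.36, 8.45, 7.87 and 7.81 in PH3 and 9.07, 9.46, 8.28 and 9.31 in Air (-0.90 ± 0.298). Air Rat340 was the only Air lung at 24 h that reached into the PH3 range. The heart difference was -0.26 ± 0.323 at 6 h and -0.33 ± 0.323 at 24 h, the olfactory bulb one -0.47 ± 0.338 and -0.06 ± 0.338, and the kidney one 0.03 ± 0.243 and -0.21 ± 0.243. In all 6 tissues the 24 h difference was below 0, though that of blood was -0.00.

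The level in Air rats was not the same at every time. Air lungs averaged 8.29 ± 0.341, 8.23 ± 0.430, 8.98 ± 0.363 and 9.03 ± 0.527 at 1, 3, 6 and 24 h (SD, n = 4 each), and Air brain stems 4.02 ± 0.494, 4.07 ± 0.596, 4.65 ± 0.383 and 4.79 ± 0.367. PH3 lungs at 3, 6 and 24 h averaged 8.39 ± 0.259, 8.39 ± 0.316 and 8.13 ± 0.328, close to the Air lungs of 1 and 3 h. Air kidneys averaged between 9.20 and 9.69 and Air hearts between 7.14 and 7.33. The hour of day at which tissues were taken is not given in the labels, and its part in these levels was not tested.

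**Figure D2:**
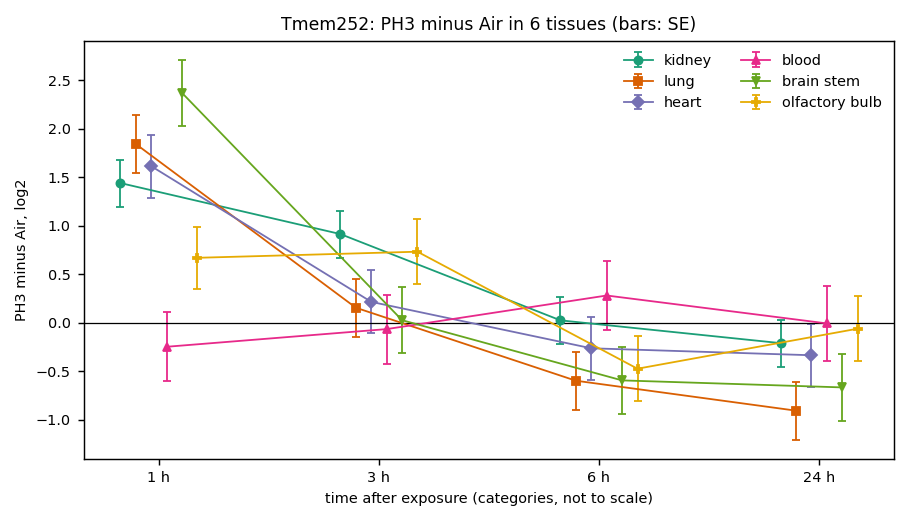
PH3 minus Air of Tmem252 on the log2 scale (points) with the SE of limma's fit (bars) at 4 times in 6 tissues, offset sideways so that they can be told apart. In brain stem, lung, heart and kidney the difference is largest at 1 h (2.37, 1.84, 1.62 and 1.44), in olfactory bulb it is 0.67 at 1 h and 0.73 at 3 h, in blood it is highest at 6 h (0.28), and by 24 h all lie at or below 0.

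The rats of a group differed from each other, and at 1 h the same rats were high or low in most tissues. Rat351 had the lowest Tmem252 of the 4 PH3 rats in brain stem, heart, kidney and lung, by 1.05, 0.96, 1.17 and 1.08 below the group mean, and ranked 3 of 4 in blood. Rat343 was the highest in brain stem, kidney, lung and blood and ranked 2 in heart behind Rat357. Among the Air rats of that time no such order was seen: Rat345 was highest in brain stem and lung but lowest in kidney. Without Rat351 the 1 h difference was 2.72 in brain stem, 2.20 in lung, 1.94 in heart and 1.83 in kidney.

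At 3 h a pair of rats, 1 exposed and 1 not, stood out. PH3 Rat368 was the highest of its group in all 4 tissues it gave, with 5.01 in brain stem, 8.31 in heart, 8.71 in lung and 4.71 in blood. The kidney array labelled Rat363, which matched Rat368, was also the highest of its group. Air Rat370 was the highest Air rat in brain stem (4.86), heart (8.36) and lung (8.69), but the lowest in blood (3.40). Both had a high 3′ index in heart, 0.923 in Rat368 and 0.842 in Rat370, and both heart arrays matched another rat number better than their own. In brain stem the index was 0.402 in Rat368, the lowest of its group, and 0.715 in Rat370, the highest, and in lung it was 0.0952 and 0.431.

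**Figure D3:**
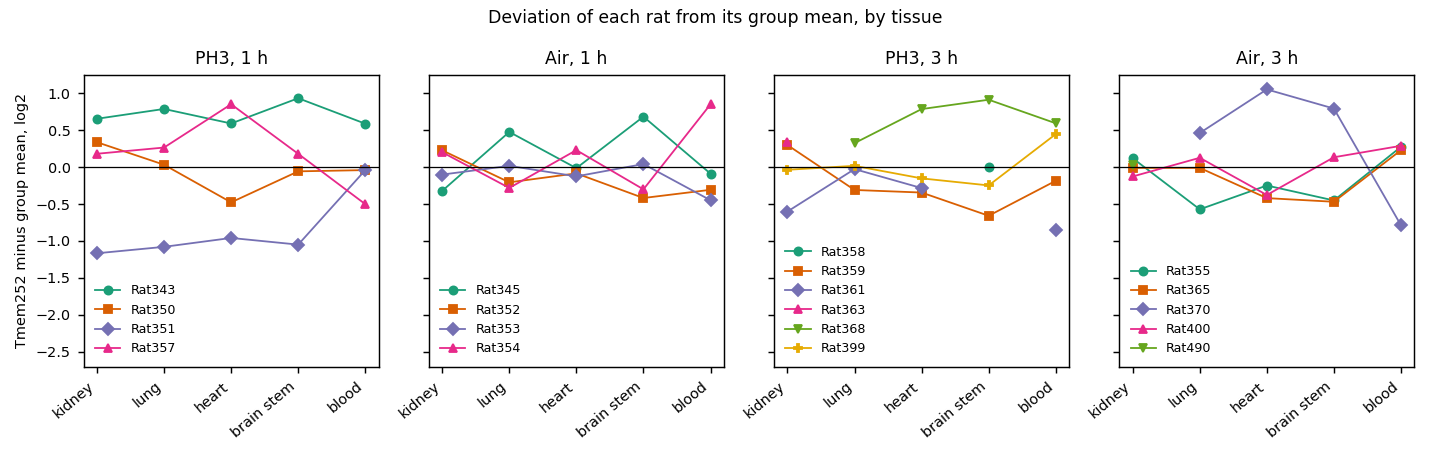
Deviation of each rat from the mean of its exposure and time group (log2) in 5 tissues, for the groups of 1 h and 3 h, PH3 panels left of the Air panel of the same time. Rat351 lies near -1 in 4 tissues of the PH3 group at 1 h, and Rat368 and Rat370 lie above 0 in lung, heart and brain stem at 3 h.

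Over all times, whether a rat lay above or below its group mean was the same for most rats in some pairs of tissues. It was on the same side in heart and lung in 24 of 32 rats, in brain stem and lung in 21 of 30, and in brain stem and heart in 19 of 30. With the olfactory bulb it was so in 8 of 9 rats for lung and 8 of 9 for heart, but in 3 of 10 for kidney. Kidney and lung agreed in 10 of 30 rats, kidney and brain stem in 12 of 28, and blood and lung in 15 of 31. Rats of a group share its mean, so these counts are not independent, and they were not tested. With the deviations of the 3′ index taken out of each tissue, an alternative chosen after the data were seen, heart and olfactory bulb agreed in 5 of 9 rats, lung and olfactory bulb in 9 of 9, and heart and lung in 22 of 32. Without the arrays that matched another number best, heart and lung agreed in 22 of 30 rats.

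Some of the glucocorticoid targets rose at 1 h in brain stem, lung, kidney and heart, and none of them was called lower there. Of 23 measured targets in brain stem, 23 had a positive effect and limma called 11 higher and 0 lower at an adjusted p under 0.05, where 0.19% of all probe sets were called higher and 0.116% lower. Their median effect was 0.71, against 0.00 over all probe sets. The largest were Sgk1, with 11.4 in PH3 and 9.44 in Air (1.93 ± 0.406, limma adjusted p = 0.0265), Pdk4 (1.75 ± 0.276, adjusted p = 0.00173) and Nfkbia, the inhibitor of NF-κB (1.29 ± 0.243, adjusted p = 0.00898). Cdkn1a, which halts the cell cycle, Fkbp5 and Arrdc2, an arrestin-domain protein, rose by 1.22, 1.17 and 1.06. Per1 and Tsc22d3 did not pass, with 0.60 ± 0.192 and 0.19 ± 0.0847 (adjusted p = 0.356 and 0.72). The count was 5 when the rat entered as a replicate block and 3 when only the 1 h arrays were fitted. The block fit took the arrays of all tissues together (correlation within a rat 0.0168), so it also shared the estimate of spread across tissues. Which of these changes lowered the count was not tested. The count was 6, 7, 6, 7 and 6 without PH3 Rat343, PH3 Rat350, Air Rat352, Air Rat353 and PH3 Rat357 in turn. The list was chosen with results of these rats known, so its direction is not independent evidence.

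In the other tissues at 1 h the same targets gave 14 of 23 called higher in lung (2.35% of all probe sets), 10 in kidney (1.51%) and 7 in heart (0.454%), with 0 lower (against 1.89%, 0.841% and 0.461% of all probe sets). Medians were 0.94, 0.67 and 0.79. Mt2A, a metal-binding protein, led in lung and heart (2.59 ± 0.267 and 2.63 ± 0.441, limma adjusted p = 1.4e-06 and 0.00191). In olfactory bulb and blood limma called 0 of 23, with 2 each at an unadjusted p under 0.05 (0.00322% and 0.0% of all probe sets were called higher), and medians were 0.18 and 0.00. The lung count was 9 without Air Rat352, and the heart count was 3, 4 and 3 without PH3 Rat343, Air Rat352 and PH3 Rat357, and 11 without PH3 Rat351. It was 1 in olfactory bulb without PH3 Rat506 or Air Rat472, and 2 in blood with the rat as replicate block. With the groups of 1 h alone the counts were 9 in lung, 4 in kidney and 1 in heart.

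At 3 h Tmem252 and Fkbp5 did not run together in every tissue. Fkbp5 was still higher in kidney (1.30 ± 0.174, limma adjusted p = 0.000182), lung (1.02 ± 0.279, adjusted p = 0.02) and brain stem (0.87 ± 0.141, adjusted p = 0.0217), while the Tmem252 differences were 0.92, 0.16 and 0.03. Of 23 targets 1 was called higher and 0 lower in kidney (0.261% and 0.0419% of all probe sets), 4 higher and 0 lower in lung (5.86% and 4.03%) and 1 higher and 0 lower in brain stem (0.0161% and 0.0%). The 3′ index differed between the lung groups at 3 h (0.178 in PH3 and 0.445 in Air), and its part in the lung calls was not tested. The median effect of the list at 3 h was 0.22 in kidney, 0.23 in lung, 0.21 in heart and -0.006 in brain stem, each below that of 1 h. At 24 h the median effect of the list was between -0.20 in lung and -0.00 in blood.

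Immediate early genes, which are switched on within minutes of a stimulus without new protein, were called in heart, kidney and lung at 1 h. In brain stem limma called 0 of 17 higher or lower (3 at an unadjusted p under 0.05), and their median was 0.02. In heart 8 of 17 were called higher, in kidney 6 and in lung 3, against the shares of all probe sets given above. Atf3, a stress transcription factor, rose by 4.03 ± 0.545 in heart, 3.39 ± 0.264 in kidney and 1.11 ± 0.294 in lung (limma adjusted p = 0.000178, 2.7e-09 and 0.0254). Whether the list's effect differs between tissues was not tested.

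By their 24 PH3 minus Air differences, the genes most like Tmem252 were Nfkbia, Pdk4, Sgk1, Arrdc2 and Nfil3, a clock and immune repressor. Their correlations with it were 0.871, 0.866, 0.827, 0.794 and 0.783, across the 24 contrasts and among 1825 genes with at least 1 difference of 1 or more. The contrasts share rats between tissues and are not independent, so these are descriptions. Per1 ranked 8 (0.754) and Fkbp5 ranked 11 (0.741). Tsc22d3 was not ranked, since none of its differences reached 1. Nfkbia had 1.29 in brain stem and heart, 0.97 in lung and 0.79 in kidney at 1 h. Sgk1 and Arrdc2 departed from Tmem252 in lung at 1 h, with 0.32 and 0.43 against 1.84 for Tmem252. Pdk4 departed in heart at 3 h, with 1.19 against 0.22.

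**Figure D4:**
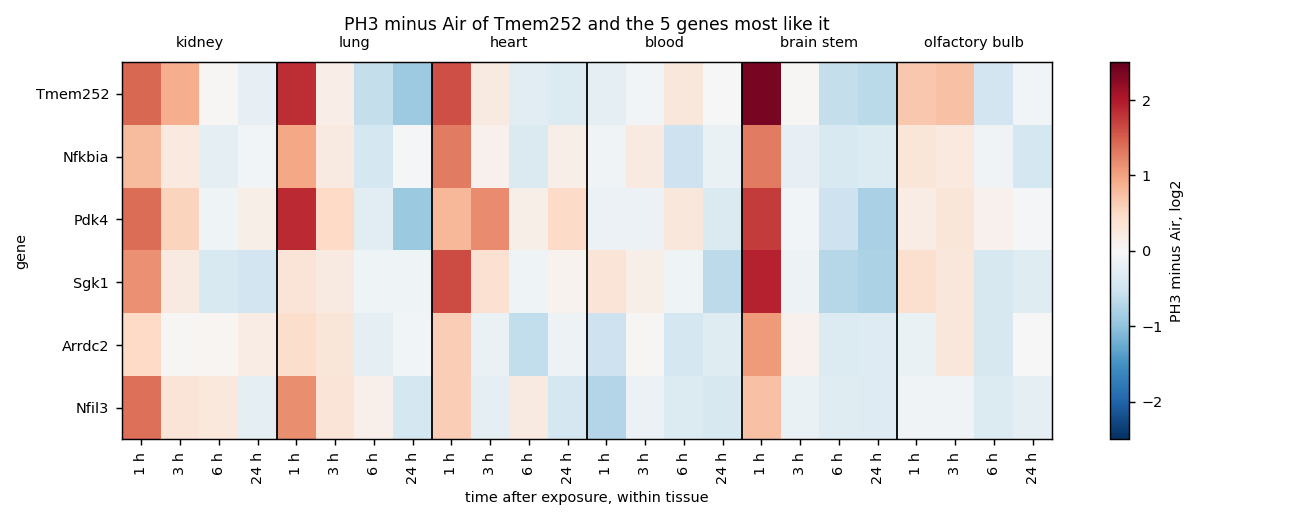
PH3 minus Air differences (log2, colour) of Tmem252 and the 5 genes most like it, in rows, over 6 tissues and 4 times, in columns. At 1 h Tmem252 and all 5 genes are above 0 in kidney, lung, heart and brain stem. Some of these cells are pale, such as Sgk1 (0.32) and Arrdc2 (0.43) in lung and Arrdc2 in kidney (0.50).

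Within groups, Tmem252 also varied with hormone targets from rat to rat in brain stem, lung, olfactory bulb and heart. Each array was taken as its deviation from its group mean, which holds none of the difference between group means. In PH3 groups it does hold any difference between rats in the size of the response. The agreement across tissues that the rule uses was read from these same Tmem252 deviations. In all, 30 relations were tested (5 partners in 6 tissues). All 5 partners belong to the target list, which was chosen with results of these rats known, so the tests are not independent of those results. After adjustment 15 of 30 passed, 14 positive and 1 negative. Without the 1 h groups, which leaves fewer arrays, 9 passed. In brain stem (32 arrays) Per1 had r = 0.704 (permutation p = 0.00012, adjusted p = 0.00072) and rho = 0.72 (permutation p = 0.00014, adjusted p = 0.0012). Pdk4 had r = 0.683 (permutation p = 3e-05, adjusted p = 0.00045) and rho = 0.691 (permutation p = 0.0002). Sgk1 had r = 0.683 (permutation p = 0.00017, adjusted p = 0.00085) and rho = 0.673 (permutation p = 0.00019). Fkbp5 had r = 0.599 (permutation p = 0.0009, adjusted p = 0.00327) and rho = 0.666 (permutation p = 0.00024). Tsc22d3 did not pass (r = 0.288, permutation p = 0.0983, adjusted p = 0.158; rho = 0.413, permutation p = 0.03, adjusted p = 0.0589). Without the 2 arrays whose partner deviated most, r was 0.662, 0.727, 0.637, 0.623 and 0.228 in the same order. Over all 13437 other genes in brain stem, r had a median of 0.01 and a 95th percentile of 0.344. All 4 called partners in brain stem were also called without the 1 h groups.

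In lung (32 arrays) Tsc22d3, Per1 and Fkbp5 passed, with r = 0.68, 0.678 and 0.56 (permutation p = 2e-05, 0.0001 and 0.00097, adjusted p = 0.00045, 0.00072 and 0.00327) and rho = 0.736, 0.68 and 0.564 (permutation p = 2e-05, 0.00016 and 0.00296). Pdk4 in lung went the other way, with r = -0.501 (permutation p = 0.0106, adjusted p = 0.0228) and rho = -0.42 (permutation p = 0.0332, adjusted p = 0.0589), although its mean rose with Tmem252 at 1 h. In olfactory bulb (33 arrays) Fkbp5, Tsc22d3, Pdk4 and Sgk1 passed, with r = 0.672, 0.655, 0.558 and 0.556 (permutation p = 0.00409, 0.00239, 0.00758 and 0.00829, adjusted p = 0.0112, 0.00717, 0.0189 and 0.0191) and rho = 0.513, 0.711, 0.487 and 0.542 (permutation p = 0.0216, 0.00046, 0.014 and 0.00725). Leaving out the 2 most deviating arrays left r at 0.633, 0.596, 0.525 and -0.425 in lung and 0.529, 0.733, 0.481 and 0.487 in olfactory bulb, in the orders given. Without the 1 h groups 2 were called in lung and 1 in olfactory bulb.

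In heart (32 arrays) Sgk1, Per1 and Fkbp5 passed, with r = 0.755, 0.715 and 0.396 (permutation p = 6e-05, 0.00098 and 0.0139, adjusted p = 0.0006, 0.00327 and 0.0278) and rho = 0.68, 0.718 and 0.417 (permutation p = 0.00047, 0.00061 and 0.0175), and with r = 0.645, 0.713 and 0.419 without the 2 most deviating arrays. There Tmem252 moved with the 3′ index too (r = 0.746, permutation p = 0.00135, adjusted p = 0.0081 over 6 tissues; rho = 0.53, permutation p = 0.0127, adjusted p = 0.0762; r = 0.638 without the 2 most deviating arrays). The 95th percentile of r over all genes was 0.558 in heart, so 2 of the 5 partners lay above it. With the index taken out, Sgk1 and Per1 kept r = 0.561 and 0.586 (adjusted p = 0.0396 and 0.00956), Tsc22d3 had 0.47 (adjusted p = 0.0134), and Fkbp5 had 0.179 (adjusted p = 0.403). In the other 5 tissues r with the index was between -0.186 and 0.244, and none of them passed (permutation p between 0.221 and 0.933, adjusted p between 0.663 and 0.933).

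No partner passed in kidney, where the Air level was highest, or in blood. In kidney (32 arrays) r was between -0.143 and 0.225, and in blood (31 arrays) between -0.313 and 0.354 (adjusted p at or above 0.157 in both). Whether the relation differs between tissues was not tested. All genes of a relation were read from the same arrays, so whatever moves a whole array enters both.

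**Figure D5:**
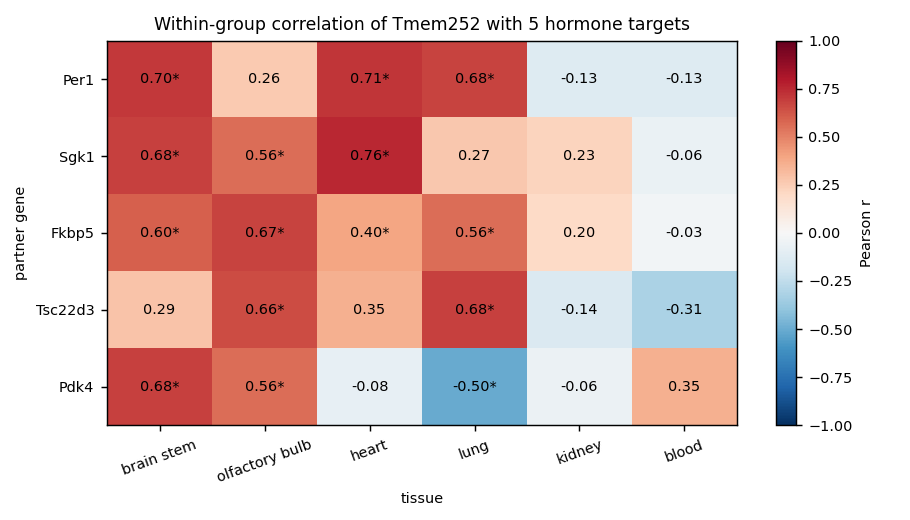
Pearson r (colour and number) between the within-group deviations of Tmem252 and those of 5 hormone targets, in rows, in 6 tissues, in columns, with an asterisk for an adjusted permutation p under 0.05. Brain stem, olfactory bulb, heart and lung hold the 15 marked cells, of which lung Pdk4 is negative.

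Among all genes in brain stem, the within-group deviations most like those of Tmem252 were of Errfi1, a brake on the EGF receptor (r = 0.863), Tcim, a regulator of Wnt signals (0.787), Nfkbia (0.774), Nr4a1, an orphan nuclear receptor (0.76), and Ddit4, an inhibitor of mTOR (0.753). These 5 were picked for their likeness among 13437 genes over 32 arrays, so no test is given. At 1 h Errfi1 and Nfkbia were called higher in PH3 (1.02 ± 0.164 and 1.29 ± 0.243, limma adjusted p = 0.00218 and 0.00898). Tcim, Ddit4 and Nr4a1 had 0.83 ± 0.266, 0.72 ± 0.215 and 0.57 ± 0.165 and did not pass (adjusted p = 0.342, 0.276 and 0.238).

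The genes beside Tmem252 on chromosome 1 were called at about the rate of all probe sets. Pabir1, Pip5k1b and Entrep1 on one side and Foxd4, Zng1a and Dock8 on the other are the 3 nearest on each side with a probe set of their own. Limma called 1 of the 144 values these 6 genes gave in the 24 contrasts (0.694%, with 13 at an unadjusted p under 0.05), where 0.752% of the values of all probe sets were called. The 1 was Zng1a in lung at 1 h, a metal chaperone that was lower in PH3 (-0.45 ± 0.105, adjusted p = 0.0102). In brain stem at 1 h they had 0.05, -0.06, -0.23, -0.05, -0.02 and -0.41 in the order named, against 2.37 for Tmem252.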

How the data were processed

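Labelled RNA was made by in vitro transcription and hybridised to Affymetrix arrays that read 3′ ends, per the labels' protocols. The deposited log2 values came from RMA, run by the authors in Partek according to the submitters' processing notes. RMA subtracts background, quantile normalizes and combines the probes of a set. No source used here gives the version or the arrays normalized jointly. Values ran from 2.04 to 14.2. The number of arrays limits the precision.

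Of 31139 probe sets, 97 controls were left out and 31042 tested with no filter. The platform annotation names 1 gene for 19063, several for 572 and none for 11407, and 18983 matched RefSeq (GRCr8) by gene identifier. The highest correlation between arrays was 0.996, so none was an exact copy of another. A sample run again need not give identical values, so this cannot exclude a repeated sample. The 59 rat numbers link tissues of 1 animal and never PH3 with Air, and p-values measure the spread between rats. As a check, 162 of 166 arrays matched the other tissues of their own number best.

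PH3 and Air were compared with limma 3.58.1 (R 4.3.3), 1 fit per tissue with 8 groups, two-sided, Benjamini-Hochberg over all probe sets, checked on simulated data. Correlations used 100000 permutations of rats within groups, two-sided (Python 3.11.15, scipy 1.17.1). A gene was read from its brightest probe set. Named genes were all of Tmem252, the 5 partners, the 5 genes most like it by each measure, up to 6 called targets, up to 3 called genes of each other list and the 6 neighbours. The gene, the lists and the rules were chosen with earlier results of these data known. Red cell genes of kidney, Mt2A, Atf3, Per1 and Tsc22d3 effects outside brain stem, Cldn5, Kdr and Zng1a were singled out after their values were seen. Alternatives were array medians subtracted, brighter probe sets only, groups of 1 time alone, the rat as replicate block, the 3′ index as covariate, and leaving out rats or arrays. The replicate block was fitted to all tissues at once, which also shared the estimate of spread between tissues.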

Additional observations from a re-analysis of the deposited data

Results flagged for a closer look

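Of 47 groups of 4 or 5 rats, 3 held a rat far from the others, and chance flags about 1 group in 20. Air Rat370 at 3 h had 3.40 in blood, below the other Air rats, and 8.36 in heart, above them. PH3 Rat368 at 3 h had 8.31 in heart, above the other PH3 rats. The 3′ index was 0.923 in that PH3 heart and 0.842 in the Air heart. Its part in these values was not tested.

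In brain stem, heart and lung every PH3 rat lay above the Air mean at 1 h and every PH3 rat below it at a later time. The later difference minus that of 1 h was -2.96 at 6 h and -3.03 at 24 h in brain stem, -1.88 at 6 h in heart, and -2.44 at 6 h and -2.75 at 24 h in lung. These changes were not tested, since the PH3 minus Air differences belong to the rule that chose the gene.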

How the results depend on the processing

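All 324 Tmem252 differences under the alternatives moved by less than the pooled SD between rats of the PH3 and Air groups. Subtracting array medians moved them by at most 0.0504, the rat as replicate block by at most 0.00861, the 3′ index as covariate by at most 0.255 and leaving out arrays that stand apart by at most 0.256, and each of the last 2 turned the sign of 1 small difference. Leaving out 1 rat kept the 1 h difference between 2.06 and 2.72 in brain stem, 1.58 and 2.20 in lung, 1.33 and 1.94 in heart, and 1.22 and 1.83 in kidney. Small differences changed sign with 1 rat left out, as at 3 h in brain stem (-0.275 to 0.292), heart (-0.0439 to 0.567) and lung (-0.0339 to 0.31), at 6 h in kidney (-0.0082 to 0.0738), at 24 h in olfactory bulb (-0.195 to 0.137), and in blood at 1, 3 and 24 h. With brighter probe sets only, Tmem252 remained in kidney, lung and heart. The count of glucocorticoid targets called at 1 h, 11 in brain stem, was 5 when the rat entered as a replicate block in a joint fit of all tissues, 3 when only 1 h arrays were fitted and 6 to 14 without 1 rat. It was 1 and 3 to 11 in heart (7), 4 and 9 to 13 in kidney (10), and 9 and 9 to 16 in lung (14), for the groups of 1 h alone and for 1 rat left out. In olfactory bulb it was 0 to 1 without 1 rat, and in blood 2 with the replicate block. The block changed no other call count by over 1.5 times. Relations called within groups were 15, and 15 with the 3′ index removed (chosen after the data were seen), 16 with array medians subtracted, 14 with the mean of a partner's probe sets and 9 without the 1 h groups; the last setting holds fewer arrays. With the index removed, heart and olfactory bulb agreed in 55.6% of rats instead of 88.9%.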
